A study of Mus musculus with 17 samples.

Results

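The genes described here are 8 transcription factors known to set or keep astroglial fate, *Sox9*, *Sox2*, *Nfia*, *Nfib*, *Nfix*, *Pax6*, *Atf5*, and *Zbtb20*. They were chosen by name, and all 8 were found by the symbol of their Ensembl identifier among the 26556 genes counted in the series. The series compares astrocytes of the primary somatosensory cortex with those of 3 sensory nuclei of the thalamus at P7. The nuclei are the dorsal lateral geniculate nucleus (dLG, visual), the ventral posteromedial nucleus (VPM, somatosensory), and the ventral medial geniculate nucleus (MGv, auditory). All groups came from mice of the FVB strain and the *Gfap::GFP* genotype, aged 7 days, with no other allele or treatment. The cortex gave 4 libraries, the dLG 5, the VPM 4, and the MGv 4, each of RNA from GFP-positive cells of 4 pooled brains sorted by FACS.

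In *Gfap::GFP* mice, promoter sequence of the astroglial gene *Gfap* drives the fluorescent protein, and a cell enters a library because it glows, not because it was identified one by one. Of the 8 astrocyte markers examined (*Aqp4*, *Slc1a2*, *Slc1a3*, *Aldoc*, *Gja1*, *Fgfr3*, *Glul*, and *Aldh1l1*), the summed level was 5603 to 12980.1 CPM (counts per 1000000, scaled by TMM) in the 17 libraries. That of 6 oligodendrocyte lineage markers was 5742 to 9237 CPM, so the sorted cells also held much RNA of that lineage. Totals per library ran from 18213687 to 50366363 counts, so that 3 counts stand for 0.0596 to 0.165 CPM, for counting error only. Cortex replicate a had the highest total, and dLG replicate c stood apart, with the fewest genes detected (17749, against 21052 to 23365 in the other libraries) and the lowest median correlation with its own group (0.938). Several results below that change without it are named, but not all.

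*Sox9* and *Sox2* encode HMG-box factors. *Sox9* is needed for neural progenitors to switch from making neurons to making glia, and *Sox2* keeps progenitors undifferentiated and stays on in astrocytes. The nuclear factor I genes *Nfia*, *Nfib*, and *Nfix* act with *Sox9* to open the astroglial program, *Nfia* being induced by it. *Pax6* patterns the forebrain and is expressed in radial glia, *Zbtb20* encodes a zinc finger repressor that promotes astrocyte formation, and *Atf5* encodes a bZIP factor of glial progenitors that also takes part in the stress response.

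All 8 genes passed the filter on low counts and were tested. Between the thalamus as a whole (13 libraries) and the cortex (4), none was a DEG, which means a gene with a BH-adjusted p under 0.1 in edgeR, where 11.4% of all 17856 genes were. At an unadjusted p under 0.05 there were 2, *Zbtb20* and *Pax6*, both lower in the thalamus, with no share of all genes to set beside them. DESeq2 also called 0. Taking the mean of the 3 nuclei in the 4-group fit called *Sox2* higher and *Zbtb20* lower. Between nuclei the same genes were not alike. Each of the 8 had a lower fitted level in the VPM than in the dLG and in the MGv, with median log2FCs of 0.42 for dLG over VPM and of -0.47 for VPM over MGv, while the median over all genes was -0.021 and -0.0086. Both comparisons use the same VPM libraries.

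DEGs among the 8 were counted in each pair of groups. The shares of all genes are shares of DEGs, and none is given for an unadjusted p under 0.05. In dLG against VPM, 3 of 8 (*Sox9*, *Sox2*, and *Nfib*) were DEGs, all higher in the dLG, against 13.7% of all genes, and 7 of 8 had an unadjusted p under 0.05. In VPM against MGv, 2 of 8 (*Sox9* and *Sox2*) were lower in the VPM, against 15.4% of all genes, and 5 of 8 had an unadjusted p under 0.05. In VPM against cortex, 3 of 8 (*Sox9*, *Pax6*, and *Zbtb20*) were lower in the VPM, against 9.00% of all genes. The single DEG was *Sox2* both in dLG against cortex, where 19.4% of all genes were called, and in MGv against cortex, where 15.4% were. With 8 genes, 1 called gene is close to these shares. In dLG against MGv, where 1.02% of all genes were called, none was a DEG by edgeR or by DESeq2 or had an unadjusted p under 0.05. The log2FCs there lay between -0.11 for *Sox2* (SE 0.14) and 0.12 for *Atf5* (SE 0.63).

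Some of these counts rest on single libraries. The count of 3 in dLG against VPM was 7 without dLG replicate d and 5 without VPM replicate b or MGv replicate b, and 7 with DESeq2. Over all genes 1416 were DEGs higher and 1029 lower in the dLG. These were 2004 and 1981 without dLG replicate d, and 2175 and 1222 of 16461 genes with DESeq2. They were 1320 and 911 without VPM replicate b and 1771 and 994 without MGv replicate b. The count of 2 in VPM against MGv was 5 without VPM replicate b, MGv replicate a, or dLG replicate e, 4 without MGv replicate d, and 5 with DESeq2. Over all genes 1322 were DEGs higher and 1424 lower in the VPM. These were 1469 and 2117 of 15424 genes with DESeq2, and 1190 and 1379 without VPM replicate b. They were 911 and 1578 without MGv replicate a, 1324 and 1888 without dLG replicate e, and 774 and 1114 without MGv replicate d. The count of 3 in VPM against cortex was 1 without VPM replicate a or VPM replicate d. Over all genes 636 were DEGs higher and 971 lower there, 464 and 753 without VPM replicate a, and 477 and 811 without VPM replicate d. The library numbers in the sample labels form 3 series by their leading digits, here called A, B, and C in rising order. Series A has 10 libraries, among them all 4 of the MGv, series C has 6, and series B holds dLG replicate c alone. What the numbers stand for is not given in the sources used here, and per the study 1 flow cell held all libraries. Within a series each of the cortex, dLG, and VPM keeps 2 libraries.

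**Figure D1:**
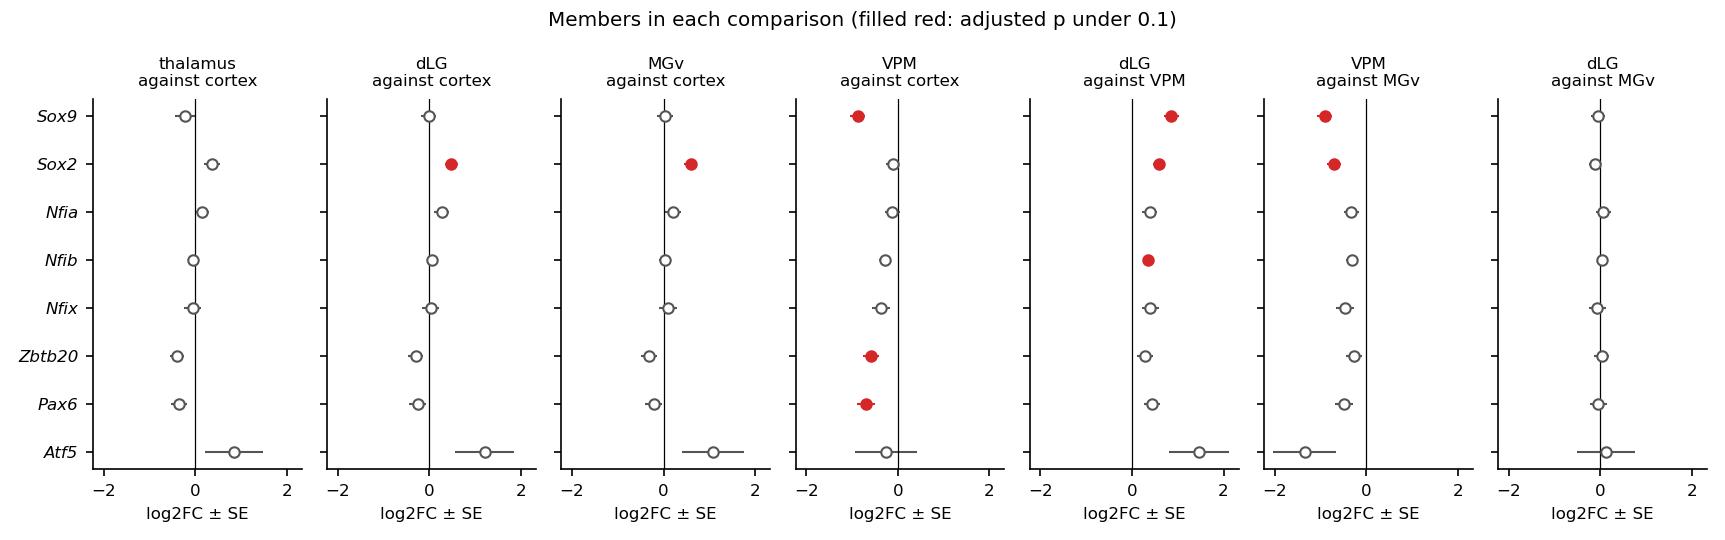
Points are the log2FC (horizontal axis, log2 scale) of each of the 8 genes in 7 comparisons, bars are its SE, and filled red points are DEGs (adjusted p under 0.1). All 8 points lie right of 0 in dLG against VPM and left of 0 in VPM against MGv, and all lie within 0.12 of 0 in dLG against MGv.

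*Sox9* (ENSMUSG00000000567, GRCm38 chromosome 11, 112782224 to 112787760, plus strand, 3 exons, 4135 exonic bases) had the largest differences among those called. In the VPM its level was 336, 519, 384, and 317 CPM in replicates a to d. The cortex held 755, 622, 739.7, and 737 CPM, the dLG 568, 724, 929.7, 711, and 597, and the MGv 619.8, 807, 815, and 677. All VPM libraries were below every library of the other groups, whose ranges overlapped each other. Its mean was 389 ± 91.0 CPM (SD, n = 4) in the VPM, 706 ± 143 (n = 5) in the dLG, 729.7 ± 96.7 (n = 4) in the MGv, and 713 ± 61.3 (n = 4) in the cortex. The log2FC was 0.86 for dLG over VPM (SE 0.16, adjusted p = 0.00597, from the quasi-likelihood test of edgeR, as for all adjusted p values below), a 1.82-fold difference. It was -0.91 for VPM over MGv (SE 0.17, adjusted p = 0.00383, 1.88-fold) and -0.88 for VPM over cortex (SE 0.17, adjusted p = 0.00245, 1.84-fold).

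The *Sox9* difference was present in both library series. Within series A the log2FC was 0.92 for dLG over VPM, -1.10 for VPM over MGv, and -1.10 for VPM over cortex, with adjusted p values of 0.101, 0.0116, and 0.0133. Within series C, which has no MGv, it was 0.65 for dLG over VPM and -0.69 for VPM over cortex, with adjusted p values of 0.733 and 0.540 from 2 libraries a group. The direction thus held in each series and the call did not always hold. Leaving out any 1 of the 17 libraries left all these 3 comparisons called, with log2FCs of 0.74 to 1.03 for dLG over VPM, the lowest of them without dLG replicate c. In the other pairs *Sox9* stayed near 0, at -0.015 for dLG over cortex (SE 0.16), 0.033 for MGv over cortex (SE 0.17), and -0.048 for dLG over MGv (SE 0.16). In bulk libraries, fewer cells of a type and less RNA per cell cannot be told apart.

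**Figure D2:**
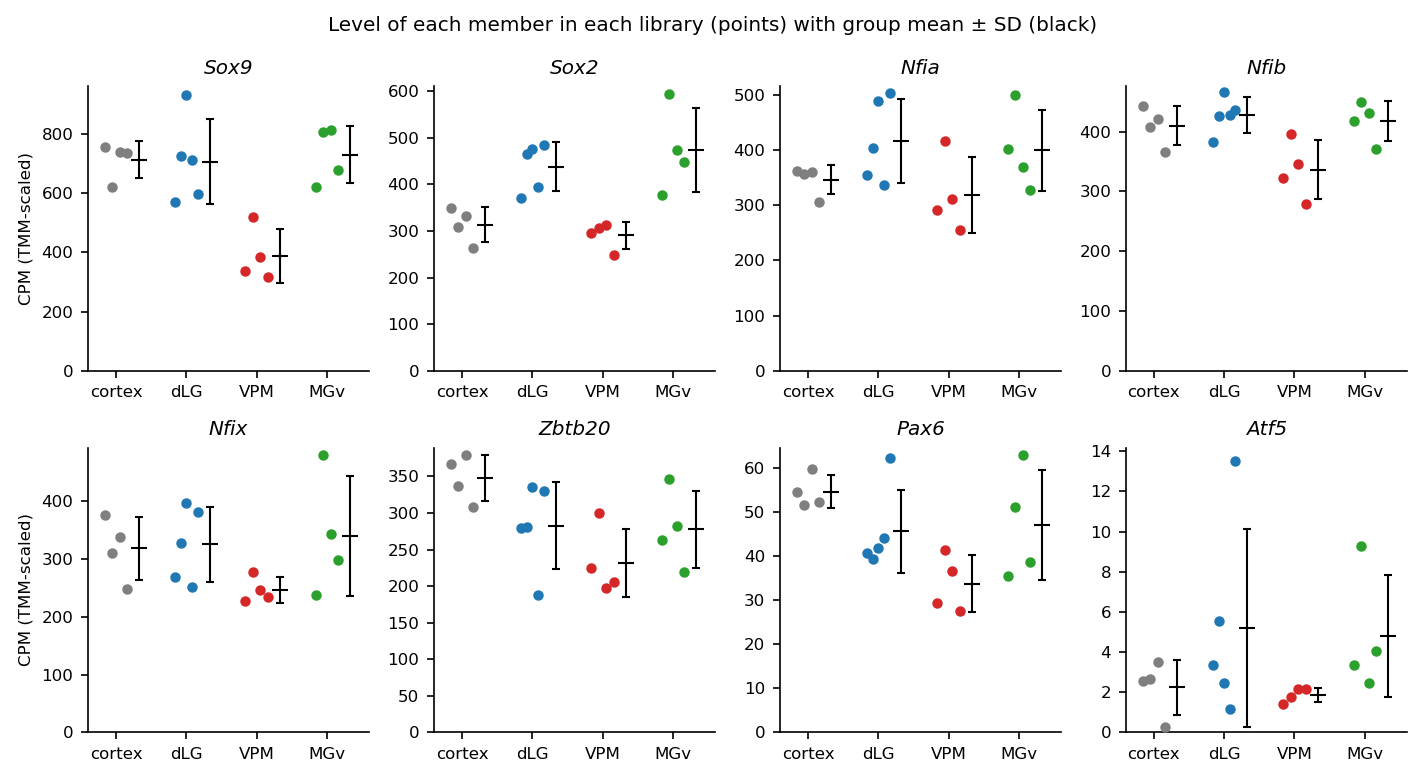
Each panel shows 1 gene, with 1 point a library in CPM (vertical axis, TMM-scaled, from 0) for the 4 groups, and the group mean ± SD in black. *Sox9* in the VPM (317 to 519 CPM) lies below all other libraries, while *Sox2* in the VPM (249 to 312 CPM) overlaps the cortex and lies below the dLG and MGv.

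Markers of other cell types were set beside these values. The summed astrocyte markers of the VPM, 6182 to 8675 CPM, overlapped those of the dLG (6186 to 8442) and MGv (5603 to 9259), and those of the cortex were higher (11907 to 12980.1). Of these 8 markers, *Gja1* (a gap junction connexin) was the only one to differ between VPM and MGv, and it was higher in the VPM (log2FC 0.77, SE 0.18, adjusted p = 0.0156). In dLG against VPM *Gja1* was lower in the dLG (-0.56, SE 0.17) and *Aldh1l1*, a folate enzyme, higher (0.64, SE 0.19), so that *Aldh1l1* went the way of *Sox9* there. In VPM against cortex 4 of the 8 (*Slc1a3*, *Glul*, *Slc1a2*, and *Aldoc*) were lower in the VPM, against 9.00% of all genes. The same 4 were lower in dLG against cortex, against 19.4% of all genes. In MGv against cortex 5 were lower, these 4 and *Gja1*, against 15.4% of all genes. The oligodendrocyte lineage sum of the VPM, 6284 to 9237 CPM, reached above the 6395 to 8066 of the dLG and the 5742 to 7748 of the MGv. Within the VPM, replicate b had the lowest of these sums, 6284 CPM, and the highest *Sox9*. The 6 genes did not move one way in VPM against MGv, where *Mbp* (a myelin protein) was higher in the VPM and *Pdgfra* and *Cspg4* (progenitor markers) were lower.

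Dividing cell markers (5 genes) summed to 510.2 to 646 CPM in the VPM, 399 to 545 in the dLG, 369.8 to 494 in the MGv, and 344 to 428 in the cortex. All 5 were higher in VPM against cortex, against 9.00% of all genes called. In dLG against cortex 3 of the 5 were higher, against 19.4% of all genes, and in MGv against cortex none was called. Between nuclei only *Ccnb1* was called, higher in the VPM than in the dLG and in the MGv. Neuronal markers (10 genes) summed to 511 to 1562 CPM in the VPM, a range that overlapped the 1030.0 to 1453 of the dLG, the 444 to 1629 of the MGv, and the 775 to 1017 of the cortex, while the dLG lay above the cortex. In VPM against MGv 3 of the 10 (*Nefl*, *Nefm*, and *Slc17a7*) were higher in the VPM, as was *Slc17a7* in VPM against dLG. Microglial markers (5 genes) were at 6.12 to 10.1 CPM in the VPM, 9.66 to 84.1 in the dLG, 10.3 to 49.8 in the MGv, and 10.4 to 18.2 in the cortex. They moved in the direction of *Sox9*, with all 5 higher in dLG against VPM (median log2FC 2.26), *Cx3cr1* and *Csf1r* lower in VPM against MGv, and none called in VPM against cortex. Endothelial markers summed to at most 44.1 CPM, pericyte markers to at most 63.3, and ependymal markers to at most 65.8. Of their genes, 1 endothelial marker was at 0 in all MGv libraries and 1 ependymal marker was at 0 in all dLG and 1 in all VPM libraries. The part of these cell types in the *Sox9* difference was not tested.

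**Figure D3:**
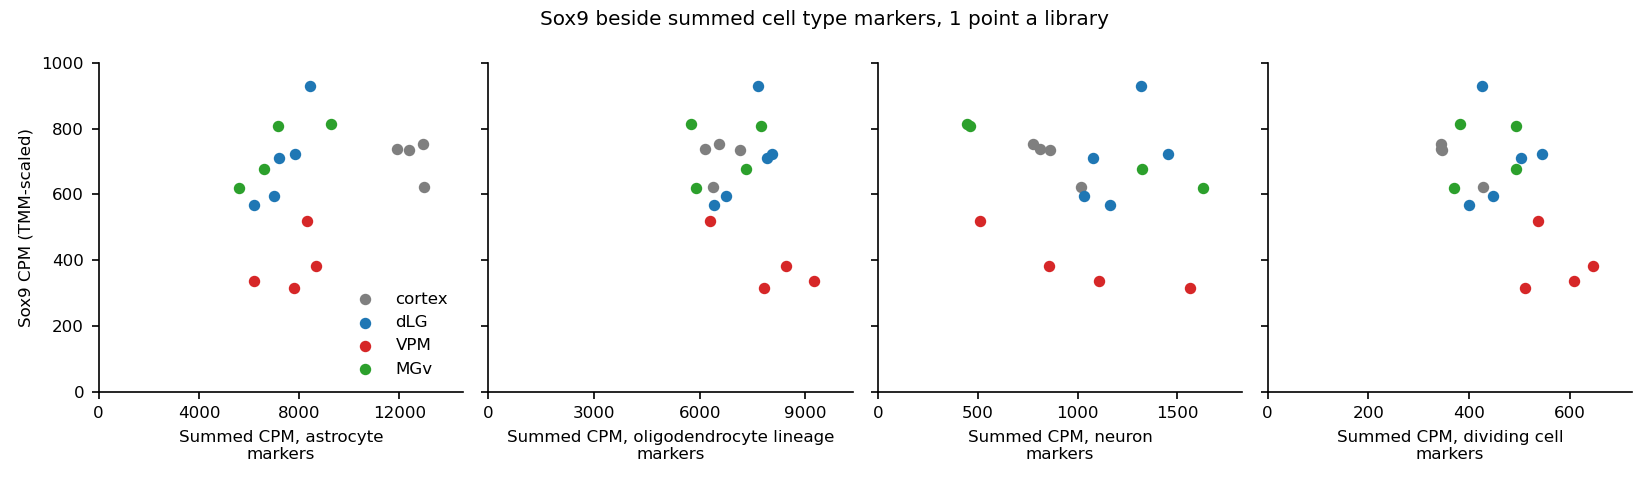
Each point is a library, with *Sox9* CPM on the vertical axis and the summed CPM of 4 marker lists on the horizontal axes, all from 0. The 4 VPM libraries lie lowest in *Sox9* at astrocyte sums within the range of the dLG and MGv, and 2 of them lie furthest right in the oligodendrocyte lineage panel.

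*Sox2* (ENSMUSG00000074637, chromosome 3, 34650405 to 34652461, plus strand, a single exon of 2057 bases) split the groups in another way. The cortex held 349, 309, 332, and 262 CPM in replicates a to d, and the VPM 295, 306, 312, and 249. The dLG held 369.8, 464, 476, 393, and 485 CPM, and the MGv 377, 593, 474, and 448. Every dLG and MGv library was thus above every cortex and VPM library. The log2FC was 0.48 for dLG over cortex (SE 0.14, adjusted p = 0.0257) and 0.60 for MGv over cortex (SE 0.14, adjusted p = 0.0123). It was 0.59 for dLG over VPM (SE 0.14, adjusted p = 0.0175) and -0.70 for VPM over MGv (SE 0.14, adjusted p = 0.00681). VPM and cortex differed by -0.11 (SE 0.14, adjusted p = 0.824).

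These 4 calls of *Sox2* were made with each library left out in turn. Within series A the log2FCs were 0.51, 0.69, 0.61, and -0.79 in the same order, of which the 2 with MGv were called. Within series C they were 0.45 for dLG over cortex and 0.59 for dLG over VPM, neither called. For the thalamus as a whole, which joins the nuclei, *Sox2* was not called, with 403 ± 97.4 CPM (SD, n = 13) against 313 ± 37.8 in the cortex (n = 4, log2FC 0.36, SE 0.18, adjusted p = 0.259).

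Of the 8 genes, 6 have RefSeq promoters in the table used, with 11 start sites, and *Sox9* and *Nfib* have none there. They were searched, 250 bases before each start on both strands, for the nuclear factor I half-site (TTGGC, or GCCAA on the other strand) and for the Sox core (ACAAT, or ATTGT). The half-site is found in 41.5% and the Sox core in 27.7% of 32851 promoters of this length, so a match is a description of the letters and nothing more. A *Sox2* window and a *Pax6* window are printed because each holds 1 match to a motif of another family among these genes. *Sox2* differed between nuclei, and *Pax6* was lower in the VPM than in the cortex. The *Sox2* window is chr3:34649745-34649994 (GRCm38.p6, plus strand, 72.0% GC), with the half-site in capitals 45 bases before the RefSeq start, which lies upstream of the Ensembl start given above. The *Pax6* window printed is chr2:105668646-105668895 (plus strand, 60.8% GC), with the Sox core in capitals 230 bases before the start. A second *Pax6* window held neither motif. Among the other windows *Nfia* held a Sox core, *Nfix* held half-sites in 2 of its 4 windows and a Sox core in 1, and *Atf5* and *Zbtb20* held neither.
Sox2: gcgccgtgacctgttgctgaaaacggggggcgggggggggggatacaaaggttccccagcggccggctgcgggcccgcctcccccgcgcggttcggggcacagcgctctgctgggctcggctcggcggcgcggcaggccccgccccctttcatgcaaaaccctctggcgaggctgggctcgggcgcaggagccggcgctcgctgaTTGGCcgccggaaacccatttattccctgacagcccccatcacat
Pax6: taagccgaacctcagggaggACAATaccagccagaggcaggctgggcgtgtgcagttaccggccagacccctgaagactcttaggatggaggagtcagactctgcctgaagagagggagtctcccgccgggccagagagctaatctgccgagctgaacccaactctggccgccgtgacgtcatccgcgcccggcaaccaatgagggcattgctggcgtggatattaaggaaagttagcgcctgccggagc

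Levels of different genes were compared per kilobase of exon. In the cortex, *Sox9* (173 ± 14.8 CPM per kilobase, SD) and *Sox2* (152 ± 18.4) were the highest of the 8, and their ranges of mean ± SD overlapped. *Nfix* (43.3 ± 7.38), *Nfia* (31.8 ± 2.43), and *Nfib* (27.4 ± 2.18) followed, then *Zbtb20* (11.3 ± 1.04), *Pax6* (4.66 ± 0.321), and *Atf5* (1.13 ± 0.692). The thalamic nuclei had the same order except that *Sox2* came before *Sox9*. In the VPM they were at 141 ± 13.9 and 94.0 ± 22.0 CPM per kilobase. The ratio of *Sox2* to *Sox9* per length was 0.716 to 0.997 in the cortex libraries. It was 1.03 to 1.63 in the dLG, 1.17 to 1.48 in the MGv, and 1.19 to 1.76 in the VPM, so every thalamic library was above every cortical one. The lowest thalamic ratio was that of dLG replicate c.

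The nuclear factor I genes were nearer to each other in all groups. *Nfib* (ENSMUSG00000008575, chromosome 4, 82290173 to 82705750, minus strand) was at 443, 407, 422, and 366 CPM in cortex replicates a to d and at 323, 396, 347, and 279 in the VPM. It was at 383, 427, 467, 427, and 435 CPM in the dLG and at 418, 449, 431, and 371 in the MGv. Only VPM replicate b reached into the dLG range. *Nfib* was called in dLG over VPM (log2FC 0.35, SE 0.11, adjusted p = 0.0677, 1.27-fold). The call was lost without VPM replicate a, VPM replicate d, dLG replicate b, or dLG replicate c, and in each series alone, where the log2FC was 0.41 and 0.30. In VPM over MGv its log2FC was -0.31 (SE 0.12) and just missed the threshold, with an adjusted p of 0.104.

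*Nfia* (ENSMUSG00000028565, chromosome 4, 97772734 to 98118874, plus strand) ranged from 306 to 361 CPM in the cortex, 337 to 503 in the dLG, 328 to 499 in the MGv, and 255 to 416 in the VPM. *Nfix* (ENSMUSG00000001911, chromosome 8, 84699876 to 84800344, minus strand) ranged from 248 to 377, 251 to 398, 238 to 480, and 228 to 278 CPM in the same order. The groups overlapped for both genes, and neither was a DEG in any comparison. The log2FC of dLG over VPM was 0.39 for *Nfia* (SE 0.16, adjusted p = 0.142) and 0.40 for *Nfix* (SE 0.18, adjusted p = 0.187). Both were called there by DESeq2 and without dLG replicate d or MGv replicate b.

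The mix of nuclear factor I genes was described as the share of each in their sum per length, with *Nfic*, the fourth gene of the family, added. *Nfix* made up 38.7% ± 2.58 in the cortex and 35.9% ± 2.04 in the VPM, *Nfia* 28.6% ± 1.29 and 30.9% ± 2.27, *Nfib* 24.7% ± 0.789 and 23.9% ± 1.01, and *Nfic* 7.98% ± 1.06 and 9.26% ± 0.744 (SD, n = 4 each). The dLG and MGv lay within 3 percentage points of the cortex for every gene. The widest spread was that of *Nfix* in the MGv, 30.8% to 42.2%.

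**Figure D4:**
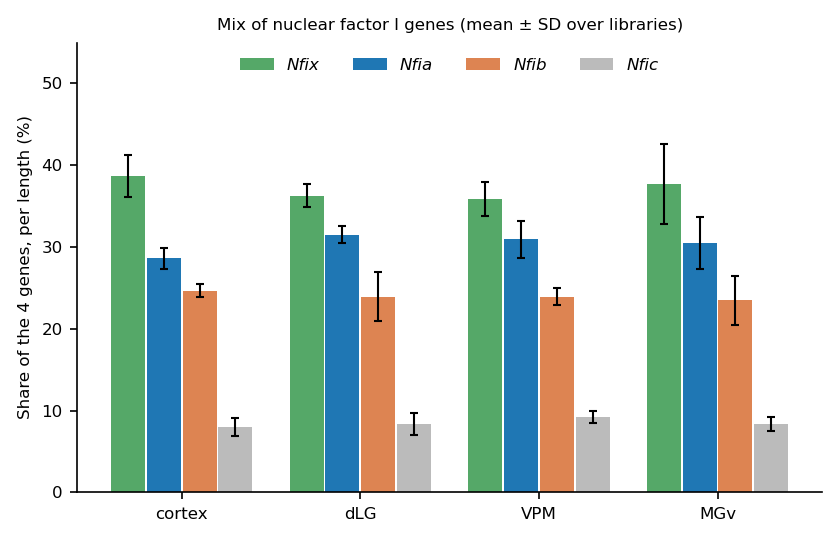
Bars are the mean share of each nuclear factor I gene in the sum of the 4 (vertical axis, percent, per exonic length, from 0) and error bars its SD over the libraries of each group. The order *Nfix*, *Nfia*, *Nfib*, *Nfic* is the same in the 4 groups, and the means of a gene in the nuclei lie within 3 percentage points of its mean in the cortex.

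*Pax6* (ENSMUSG00000027168, chromosome 2, 105668900 to 105697364, plus strand) was at 54.6, 51.6, 59.8, and 52.2 CPM in cortex replicates a to d. The VPM held 29.3, 41.4, 36.6, and 27.6 CPM, the dLG 40.8, 39.2, 41.9, 44.1, and 62.1, and the MGv 35.4, 51.0, 62.8, and 38.7. All VPM libraries were below all of the cortex, and the dLG and MGv spanned the gap. The log2FC of VPM over cortex was -0.69 (SE 0.19, adjusted p = 0.0318, 1.62-fold). The call was lost without VPM replicate a or VPM replicate d, with adjusted p values of at most 0.115. It was -0.82 in series A and -0.59 in series C, neither called. For dLG and MGv over cortex the log2FC was -0.26 (SE 0.18) and -0.21 (SE 0.19), and neither was called.

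*Zbtb20* (ENSMUSG00000022708, chromosome 16, 42875881 to 43642602, plus strand) was at 367, 337, 379, and 308 CPM in cortex replicates a to d and at 224, 299.6, 197, and 205 in the VPM. It was at 280.1, 280.4, 336, 188, and 329.9 CPM in the dLG and at 263, 346, 282, and 219.7 in the MGv. The VPM again lay below the cortex without overlap, at a log2FC of -0.59 (SE 0.18, adjusted p = 0.0555, 1.50-fold). That call was lost without VPM replicate a, c, or d or cortex replicate a or c, was made in series A (log2FC -0.79), and was not made in series C (-0.43). For the whole thalamus the log2FC was -0.39 (SE 0.15, adjusted p = 0.129), and the gene was called, at an adjusted p of 0.0843, without dLG replicate c.

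*Atf5* (ENSMUSG00000038539, chromosome 7, 44812256 to 44816658, minus strand) was the lowest and the most variable. It had 6 to 118 counts a library in the cortex and 30 to 44 in the VPM, or 0.290 to 3.52 and 1.43 to 2.17 CPM. The dLG held 3.37, 5.55, 2.46, 1.14, and 13.5 CPM in replicates a to e, and the MGv 3.37, 9.28, 2.47, and 4.08 in replicates a to d. A single dLG library, replicate e, and a single MGv library, replicate b, thus set the means of these groups. *Atf5* had the largest log2FCs of the 8, 1.46 for dLG over VPM (SE 0.66, adjusted p = 0.177) and -1.34 for VPM over MGv (SE 0.68, adjusted p = 0.227), and none was called. All VPM libraries lay below all MGv libraries. Of its exonic length 4.11% is shared with *Il4i1* and *Nup62* on the other strand, and whether reads were counted by strand is not given in the sources used here. No other of the 8 shared more than 1.92%.

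Across the 17 libraries, the 8 genes rose and fell together to different degrees. On log2(CPM + 0.5), Pearson's r was 0.88 between *Sox9* and *Nfib*, 0.83 between *Nfia* and *Nfib*, and 0.77 both between *Nfia* and *Nfix* and between *Sox2* and *Nfia*. It was 0.64 between *Sox9* and *Sox2*, 0.26 between *Sox2* and *Zbtb20*, and 0.18 between *Sox9* and *Atf5*. Among 14602 other genes with a mean of at least 1 CPM, the ones most like *Sox9* were *Fmo1*, a flavin monooxygenase (r = 0.94), and *Trim47* (r = 0.91). Both were lowest in the VPM, at a mean of 53.5 and 11.2 CPM against 112 and 71.1 in the cortex. The ones most like *Sox2* were *Gm44645* and *Zfp36l1*, an RNA-binding protein (both r = 0.94).

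For *Nfia* the most alike were *Smad5*, a BMP signal transducer (r = 0.95), and *Nfkb1* (r = 0.93), and for *Nfib* *Mcc* (0.91) and *Arap2* (0.88). For *Nfix* they were *Rhoc* and *Npc2* (both r = 0.90), and for *Pax6* *Dtna*, which encodes dystrobrevin alpha, and *Sall1*, a zinc finger factor (both r = 0.86). For *Atf5* they were *Gm44950* (0.91) and *Arl3* (0.90), and for *Zbtb20* *AI413582* (0.90) and *Nmb*, which encodes neuromedin B (0.87). These values describe 17 libraries that share groups and library scaling.

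The other regulators of the astroglial lineage were read from a list of 23 genes. In thalamus against cortex, 2 were higher and 3 lower, where 11.4% of all genes were called. The higher ones were *Npas3* (log2FC 0.85, SE 0.18) and *Dbx2* (0.61, SE 0.20). The lower ones were *Lhx2* (-4.90, SE 0.37) and *Emx2* (-1.95, SE 0.25), patterning factors of the cortex, and *Rorb* (-0.46, SE 0.14). The adjusted p values of the 5 ran from 2.54e-08 to 0.0650. The count of 2 higher was 1 without cortex replicate b or d and 3 without cortex replicate a. The 3 lower were 2 without cortex replicate a, b, or d and within series A and series C, and 6 with the mean of the 3 nuclei in the 4-group fit. Over all genes 974 were higher and 1059 lower. These were 636 and 826 without cortex replicate a, 523 and 708 without b, 539 and 616 without d, and 1273 and 1514 with that mean. The median of the list was 0.12, against 0.020 over all genes.

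Between nuclei, in dLG against VPM, 11 of 23 were DEGs, all higher in the dLG, against 13.7% of all genes, with a list median of 0.59. In VPM against MGv, 10 of 23 were DEGs, all lower in the VPM, against 15.4% of all genes, with a list median of -0.61. In dLG against MGv none was a DEG. The 11 were *Hopx*, *Hes5*, *Id4*, *Gli3*, *Id1*, *Lhx2*, *Id3*, *Klf15*, *Rfx4*, *Npas3*, and *Stat3*, and the 10 were *Hopx*, *Hes5*, *Lhx2*, *Gli3*, *Id1*, *Id4*, *Tcf7l1*, *Rfx4*, *Klf15*, and *Stat3*. These comparisons, too, share the VPM libraries. The count of 11 was 5 without VPM replicate a, 6 without VPM replicate c or d, and 7 without dLG replicate c, and it was 1 within series A and 0 within series C. The calls over all genes, 1416 higher and 1029 lower in dLG against VPM, fell too. They were 756 and 287 without VPM replicate a, 784 and 286 without VPM replicate c, 805 and 385 without VPM replicate d, and 1011 and 681 without dLG replicate c. Few genes of any kind were called there within a series. In dLG against VPM 100 were higher and 37 lower of 18666 within series A, and 2 and 0 of 17269 within series C. The count of 10 was 8 without MGv replicate b, where 513 of all genes were higher and 945 lower in VPM against MGv. It was 9 within series A, where 597 of all genes were higher and 1188 lower.

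Several of these genes were named after their values were seen, as the clearest cases. *Hes5*, a Notch effector, was at 207, 387, 158, and 159 CPM in the VPM, 682, 752, 756, 483, and 805 in the dLG, and 775, 1617, 719, and 744 in the MGv. No library of the VPM overlapped either of these nuclei. The cortex, at 509, 249, 510, and 387 CPM in replicates a to d, did overlap the VPM. *Hes5* was not called in VPM against cortex and was called higher in MGv against cortex. Its log2FC was 1.61 for dLG over VPM (SE 0.30, adjusted p = 0.00578) and -2.08 for VPM over MGv (SE 0.32, adjusted p = 0.000786), and 31.8% of its exonic length overlaps *Gm20421* on the other strand, as 27.2% of that of *Hopx* overlaps *Hopxos*. *Id4*, an inhibitor of differentiation, had log2FCs of 1.59 (SE 0.26) and -1.29 (SE 0.27). *Olig2*, which marks the oligodendrocyte lineage and is on the same list, was not called in either comparison.

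**Figure D5:**
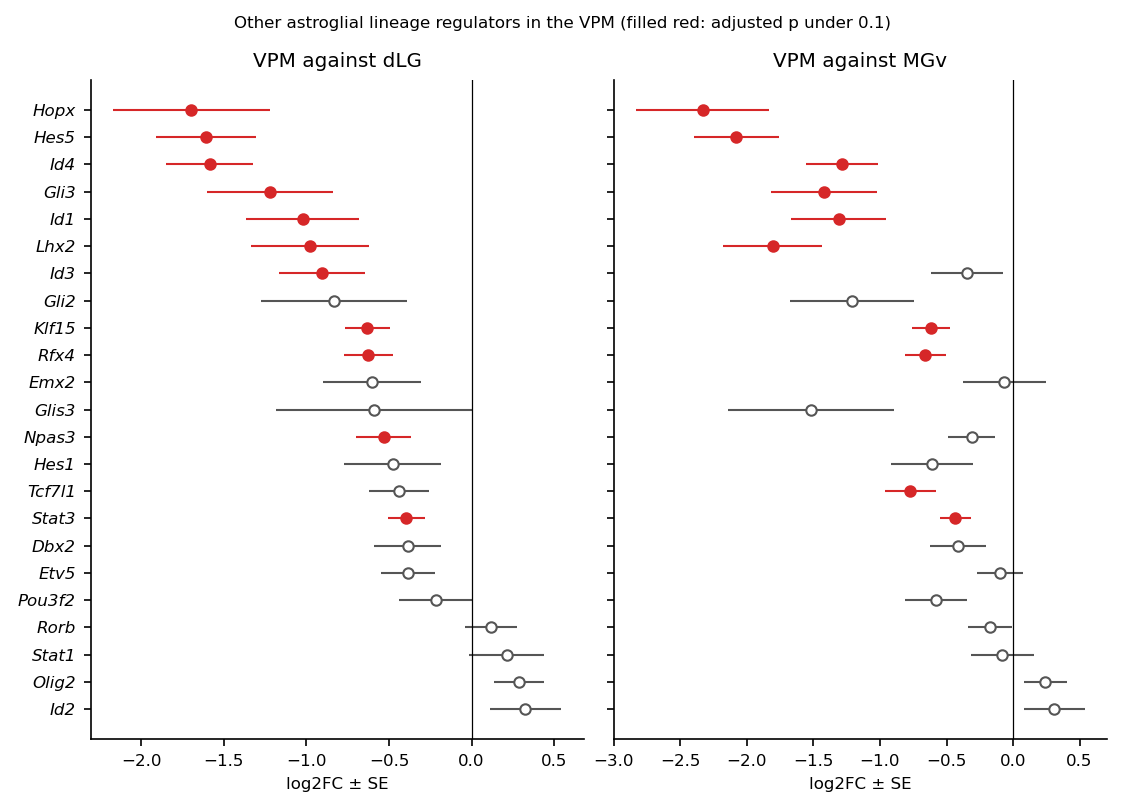
Points are the log2FC (horizontal axes, log2 scale) of 23 other lineage regulators in VPM against dLG (left) and VPM against MGv (right), bars are SEs, and filled red points are DEGs. All filled points, 11 on the left and 10 on the right, lie left of 0, with *Hopx* and *Hes5* furthest. *Hopx* varied widely in the MGv, where replicate a, at 17.2 CPM, was below every VPM library and replicate c was at 283 CPM. The remaining MGv libraries and all dLG libraries were above every VPM library. The VPM overlapped the cortex in *Hopx* and was not called against it, while the dLG and MGv were called higher than the cortex.

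The related family genes were 10, *Nfic* and 9 Sox genes. In thalamus against cortex *Sox3* (log2FC 0.88, SE 0.18, adjusted p = 0.00271) and *Sox6* (0.82, SE 0.20, adjusted p = 0.0107) were higher and *Sox21* (-0.74, SE 0.14, adjusted p = 0.00150) was lower, 3 of 10 against 11.4% of all genes. A further gene was called lower without VPM replicate a, c, or d. *Sox3* belongs to the same subgroup as *Sox2*, as does *Sox1*. The genes *Nfic*, *Sox1*, *Sox4*, *Sox5*, *Sox8*, *Sox10*, and *Sox11* were not called there. In dLG against VPM 3 were higher (*Sox1*, *Sox4*, and *Sox11*) and 1 lower (*Sox8*), against 13.7% of all genes. The 3 were 1 without VPM replicate d, and the 1 was 2 without VPM replicate b or dLG replicate d. None was called within either series, where, as given above, few of all genes were. In VPM against MGv *Sox8* was higher (log2FC 0.72) and *Sox1* (-1.38) and *Sox4* (-0.65) were lower, against 15.4% of all genes. The 2 lower were 3 without MGv replicate a or c, cortex replicate c or d, or dLG replicate c or e. *Sox10*, a marker of the oligodendrocyte lineage that belongs with *Sox8* and *Sox9* to the SoxE subgroup, had log2FCs of -0.37 (SE 0.15) for dLG over VPM and 0.10 (SE 0.16) for VPM over MGv and was not called. Among the nuclei, *Sox9* was thus the SoxE gene with the lower level in the VPM, and *Sox8* the one with the higher. Against the cortex they were not mirror images. *Sox8* was at 416 to 668 CPM in the VPM and 527 to 640 in the cortex and was not called between them. It was called lower in the dLG and in the MGv than in the cortex. Of the exonic length of *Sox4* 54.6%, of *Sox21* 18.8%, and of *Sox8* 10.6% overlaps other genes.

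Genes known as targets of the 8 factors, a list of 12, were called in both directions. In thalamus against cortex *S100b* (log2FC 0.84, SE 0.21) was higher, and *Slc1a3*, the glutamate transporter GLAST (-1.72, SE 0.11), and *Hapln1*, a link protein of the matrix (-2.44, SE 0.44), were lower, 3 of 12 against 11.4% of all genes. The remaining 9, *Gfap*, *Fabp7*, *Apcdd1*, *Mmd2*, and *Zcchc24* among them, were not called. The VPM differed most in *Gfap*, named after its values were seen, an intermediate filament gene whose promoter sequence also drives the sorted GFP. Its level was 8.98, 19.3, 11.8, and 9.37 CPM in the VPM, against 450.4 to 538 in the cortex, 78.3 to 1310.0 in the dLG, and 36.1 to 5525 in the MGv. No VPM library overlapped another group. The log2FC was 5.44 for dLG over VPM (SE 1.17, adjusted p = 0.0130) and -7.24 for VPM over MGv (SE 1.28, adjusted p = 0.00314).

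In dLG against VPM, *Gfap*, *Hes5*, and *Aldh1l1* of the 12 targets were higher in the dLG, and *S100b* and *Hapln1* were lower, against 13.7% of all genes. In VPM against MGv, *Gfap* and *Hes5* were lower in the VPM and *S100b* and *Hapln1* were higher, against 15.4% of all genes. The count of 2 lower was 4 without dLG replicate e, and it also rose without dLG replicate c or d, MGv replicate b, or VPM replicate b. The called targets thus went both ways. The count of 2 lower in dLG against VPM was 1 without VPM replicate a, b, or d or dLG replicate c, and the counts of 3 and 2 were 1 and 1 within series A and 0 and 0 within series C. As given above, few of all genes were called in this comparison within a series.

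The last list held *Atf4*, a partner of *Atf5* in the stress response, and 11 other stress response genes. In thalamus against cortex *Sesn2* was the only DEG (log2FC 0.48, SE 0.17, adjusted p = 0.0905), and 1 of 12 is near the 11.4% of all genes. That call held only without MGv replicate a or c, VPM replicate b or d, cortex replicate d, or dLG replicate c or e, and not without any of the others. In VPM against MGv *Asns* and the mitochondrial chaperone genes *Hspd1*, *Hspe1*, and *Hspa9* were higher in the VPM, with log2FCs of 0.58 to 0.72. *Atf3* was lower, and 15.4% of all genes were called there. The count of 4 higher was 1 without MGv replicate b or VPM replicate a and 2 without VPM replicate c or d, and *Atf3* was not called without VPM replicate a. *Atf4* itself was not a DEG in any comparison.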

How the data were processed

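The 17 libraries were made from total RNA of FACS-sorted GFP-positive cells with the SMARTer Ultra Low kit, version 4, and sequenced as single reads. The authors trimmed adapters, mapped the reads to mm10 with STAR (2.7.0d), counted them on Ensembl genes (release 95) with featureCounts of Subread (1.6.4), and deposited raw counts per gene for each library, without normalization. Symbols and positions came from Ensembl release 96 (GRCm38), which matched 26548 of 26556 identifiers, and promoters from RefSeq (GRCm38.p6). Each library was assigned to its group by its sample label.

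Counts were filtered with filterByExpr and tested with edgeR's robust quasi-likelihood test (edgeR 4.0.16, limma 3.58.1, R 4.3.3), and p values were BH-adjusted over all 17856 genes. Thalamus and cortex were fitted as 2 groups of 13 and 4 libraries, and pairs of groups in a fit of 4 groups. A DEG has an adjusted p under 0.1. The SE of a log2FC is its absolute value over the root of its *F* statistic. CPM were scaled by TMM, and exonic lengths gave levels per kilobase. The labels give separate pooled samples of brains, so p values measure the spread between these samples, which may be in part technical.

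The named genes are the 8 factors, for each the 2 genes with the highest Pearson r, and from each of 4 lists the called genes with the 3 largest log2FCs in each direction in thalamus against cortex. Others are said to be named after their values were seen. The members and the lists were chosen with earlier results of these data known, and some genes of the lists are not reported here. The alternatives were DESeq2 (1.42.0), its size factors in edgeR, no filter, at least 10 counts in every library, adjusted p under 0.05, log2FC over 0.322, a fit of the nuclei alone, the number series of the library as a covariate, a block for the replicate letter, the mean of 3 nuclei, unscaled totals (for levels), and each library left out. Each number series alone, and dLG replicate e with MGv replicate b left out together, were added after seeing the data. The tests were tested on simulated data. Tables and figures were made with Python 3.11.15, pandas 2.3.3, numpy 2.4.6, and matplotlib 3.10.9.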

Additional observations from a re-analysis of the deposited data

Results flagged for a closer look

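In 32 groups of values of the 8 genes, 3 single libraries lay far from the rest of their group, where about 1 in 20 groups does so by chance. *Sox9* was lowest in cortex replicate b, at 622 CPM, *Nfia* was lowest in cortex replicate d, at 306 CPM, and *Pax6* was highest in dLG replicate e, at 62.1 CPM.

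Effects against the cortex differed between nuclei, by the direct test of one nucleus against the other, for 3 genes. The difference between dLG and VPM was 0.86 for *Sox9*, 0.59 for *Sox2*, and 0.35 for *Nfib* on the log2 scale. The difference between VPM and MGv was -0.91 for *Sox9* and -0.70 for *Sox2*.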

How the results depend on the processing

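Of 56 log2FCs of the 8 genes, 10 were called, and none of these changed sign under any alternative run. *Sox9* and *Sox2* in VPM against MGv and *Sox2* in MGv against cortex were called in all of them that include the MGv. Within series C alone the count in VPM against cortex was 0, and within series A and series C alone the counts in dLG against cortex and in dLG against VPM were 0 in each, with 2 libraries in each of these groups. Over all genes the calls within series A were 447 higher and 507 lower in dLG against cortex, and 100 and 37 in dLG against VPM. Within series C they were 144 and 174, and 2 and 0, with 98 and 201 in VPM against cortex. With the mean of the 3 nuclei in the 4-group fit, 1 gene (*Sox2*) was higher and 1 (*Zbtb20*) lower in the thalamus. *Zbtb20* was also the 1 lower gene without dLG replicate e and MGv replicate b together, and with the replicate block. Same-lettered libraries deviated together, with r over 0.1, in 6 of 24 pairs (range -0.17 to 0.27). These were cortex and MGv (replicates a and d), cortex and dLG (d), dLG and MGv (d), and VPM and MGv (b and d). Pairs of different letters were not set beside them, so whether a letter marks a shared origin cannot be told. With the block the count was 4 in VPM against MGv and changed in no other pair of groups. Over all genes the block gave 1737 DEGs higher and 1656 lower in VPM against MGv, against 1322 and 1424 without it. DESeq2 called 7 genes in dLG against VPM and 5 in VPM against MGv, a minimum of 10 counts in every library gave 5 in each, and DESeq2's size factors gave 4 in VPM against MGv. With DESeq2 the calls over all genes were 2175 higher and 1222 lower in dLG against VPM, and 1469 and 2117 in VPM against MGv. With the minimum of 10 counts they were 1711 and 953, and 1180 and 1746, of 12719 genes. With DESeq2's size factors they were 1000 and 1621 in VPM against MGv. Leaving out 1 library at a time gave counts of 0 to 1 lower in the thalamus, 1 to 4 in VPM against cortex, 2 to 7 in dLG against VPM, and 2 to 5 in VPM against MGv. The calls over all genes in VPM against cortex were then 445 to 856 higher and 753 to 1256 lower. The cause was not tested.

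Sign changes numbered 63, all among 16 uncalled log2FCs. For *Sox9* in dLG against cortex they were 0.014 with DESeq2 and with its size factors, 0.019 with at least 10 counts, 0.013 with no filter, 0.015 with the block, and 0.069 without dLG replicate e and MGv replicate b together. In dLG against MGv, the block gave 0.0027 for *Sox9*, -0.0073 for *Nfia*, -0.69 for *Atf5*, and -0.037 for *Zbtb20*. Leaving out dLG replicate e and MGv replicate b together gave there 0.048 for *Sox9*, 0.077 for *Nfix*, and -0.085 for *Atf5*. Series A alone gave there -0.076 for *Nfia*, -0.044 for *Nfib*, and -0.10 for *Atf5*, and the series covariate -0.098 for *Nfia*, -0.066 for *Nfib*, and -0.090 for *Zbtb20*. *Nfix* was 0.067 in thalamus against cortex in series A, -0.076 in MGv against cortex without those libraries together, and in dLG against cortex -0.078 in series C, -0.047 with the covariate, and -0.051 with the block. *Pax6* in dLG against cortex was 0.039 in series C, and *Atf5* in VPM against cortex 0.17 in series A.

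With single libraries left out, ranges that crossed 0 in dLG against MGv were -0.17 to 0.021 for *Sox9*, -0.21 to 0.0065 for *Sox2*, -0.020 to 0.18 for *Nfia*, -0.013 to 0.073 for *Nfib*, -0.21 to 0.14 for *Nfix*, -0.19 to 0.13 for *Pax6*, -0.62 to 0.65 for *Atf5*, and -0.065 to 0.14 for *Zbtb20*. Against the cortex they were -0.13 to 0.068 (*Sox9*, dLG), -0.030 to 0.14 (*Sox9*, MGv), -0.051 to 0.12 (*Nfix*, dLG), -0.077 to 0.27 (*Nfix*, MGv), -0.62 to 0.037 (*Atf5*, VPM), -0.069 to 0.013 (*Nfib*, thalamus), and -0.13 to 0.031 (*Nfix*, thalamus). The low counts of *Atf5*, 6 to 268 a library, limit what can be shown for it.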
